A study of Homo sapiens with 4 samples.

Results

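The translation elongation factor genes *EEF1A1*, *EEF1A2*, *EEF1B2*, *EEF1D*, *EEF1G* and *EEF2* were followed through their noncoding transcripts. The cells were labelled HepG2, a line established from a human liver tumour. The 6 genes were taken by name from the 29585 genes that had a named transcript in the table. They had 23 such transcripts, 18 of the retained-intron class and 5 of the processed-transcript class of GENCODE release 29. The set was chosen by the measured difference between resistant and wild-type cells, in which *EEF1A1* had the smallest p-value, so that difference is given here as a description. One group of 2 libraries came from wild-type cells and the other from cells labelled oxaliplatin-resistant, oxaliplatin being a platinum drug that cross-links DNA. No dose or length of selection is given in the labels, and they list no treatment. Nor do they say whether the resistant cells are 1 clone, or whether libraries were grown apart. The p-values therefore reflect only how far these libraries vary, which may be technical. RNA-seq of total RNA gave estimated counts per transcript, and the library totals lay between 34898860 and 44063444 counts.

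Elongation is the step of protein synthesis in which amino acids are added to the growing chain on the ribosome. The product of *EEF1A1* or of its paralogue *EEF1A2*, which is best known from muscle and neurons, carries aminoacyl-tRNA to the ribosome as a GTP complex. The products of *EEF1B2* and *EEF1D* exchange its GDP for GTP, that of *EEF1G* holds the exchange complex together, and that of *EEF2* moves the ribosome along the mRNA. Apart from *EEF1A2*, these genes are among the most highly expressed in growing cells. The values here are counts assigned to noncoding transcripts, and the mRNAs of the 6 genes are not analysed here. They cannot be read as mRNA levels, and whether reads of the mRNAs entered them was not tested. A retained-intron transcript is one whose annotated exons include a stretch that is an intron in other transcripts of the gene.

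The 3 retained-intron transcripts of *EEF1A1* each keep a short intron, and these are shown because every *EEF1A1* count below was assigned to one of them. ENST00000495333 and ENST00000488500 are also shorter than the mRNA, with 817 and 676 of its 1386 coding bases. The sequences are those of the release 29 transcripts on GRCh38, written 5′ to 3′ on the minus strand, with coding bases in lower case and the retained intron in capitals. The stretch of ENST00000490569 has 89 bases (chr6:73518265-73518353), that of ENST00000495333 has 108 (chr6:73519229-73519336) and that of ENST00000488500 has 83 (chr6:73518849-73518931).
ENST00000490569: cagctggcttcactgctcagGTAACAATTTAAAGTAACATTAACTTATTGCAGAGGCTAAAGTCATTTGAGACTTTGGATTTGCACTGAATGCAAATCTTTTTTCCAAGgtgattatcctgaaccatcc
ENST00000495333: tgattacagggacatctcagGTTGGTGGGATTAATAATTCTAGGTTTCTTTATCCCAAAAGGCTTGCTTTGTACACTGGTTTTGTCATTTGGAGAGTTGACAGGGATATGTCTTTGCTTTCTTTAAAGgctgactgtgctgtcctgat
ENST00000488500: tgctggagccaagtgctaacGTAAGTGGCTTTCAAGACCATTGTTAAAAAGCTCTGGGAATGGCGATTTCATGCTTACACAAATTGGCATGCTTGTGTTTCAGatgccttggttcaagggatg
Each stretch began with GT and ended with AG, the usual ends of an intron. Their GC content was 31.5%, 37.0% and 41.0%. For comparison, the leading transcript of *EEF1G*, ENST00000525340, keeps an intron of 1088 bases (chr11:62572743-62573830, minus strand), and that of *EEF1B2*, ENST00000460760, runs 480 bases into an intron (chr2:206160711-206161190, plus strand). The first 80 bases of each stretch follow in capitals, after 12 and 20 coding bases.
ENST00000525340: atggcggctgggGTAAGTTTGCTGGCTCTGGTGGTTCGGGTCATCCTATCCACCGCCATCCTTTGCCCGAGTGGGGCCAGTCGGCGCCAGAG
ENST00000460760: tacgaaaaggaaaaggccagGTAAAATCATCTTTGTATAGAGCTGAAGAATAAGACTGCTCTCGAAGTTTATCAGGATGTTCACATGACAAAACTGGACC

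Counts assigned to noncoding transcripts of *EEF1A1* were high in resistant cells and low in wild-type cells. The sums of the other 4 genes with enough counts overlapped between the groups. Sums are given in CPM, counts scaled to a common library total over tested genes with TMM factors (trimmed mean of M-values). *EEF1A1* (ENSG00000156508, chromosome 6) had 50.05 and 50.3 CPM in the wild-type libraries and 2201 and 2489 CPM in the resistant ones. Both resistant libraries lay far above both wild-type libraries, and within a group the libraries differed by 1.01-fold and 1.13-fold. The mean was 46.7-fold higher in the resistant pair, with a log2 fold change of 5.55 ± 0.26 (SE from the edgeR quasi-likelihood fit, 2 libraries a group). Over all tested genes the fit called 0 of 13745, which is 0%, at an adjusted p under 0.05 (smallest adjusted p = 0.323, that of *EEF1A1* included). With unadjusted p under 0.05 there were 1192 genes, or 8.67%, and limma-voom called 0. DESeq2 called 633 of the 13478 genes to which it gave an adjusted p, or 4.7%, *EEF1A1* among them (353 higher in resistant cells, or 2.62%). A log2 fold change over 5 was found for 285 of the tested genes, or 2.07%. In these bulk libraries more cells with a transcript and more copies per cell cannot be told apart.

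**Figure D1:**
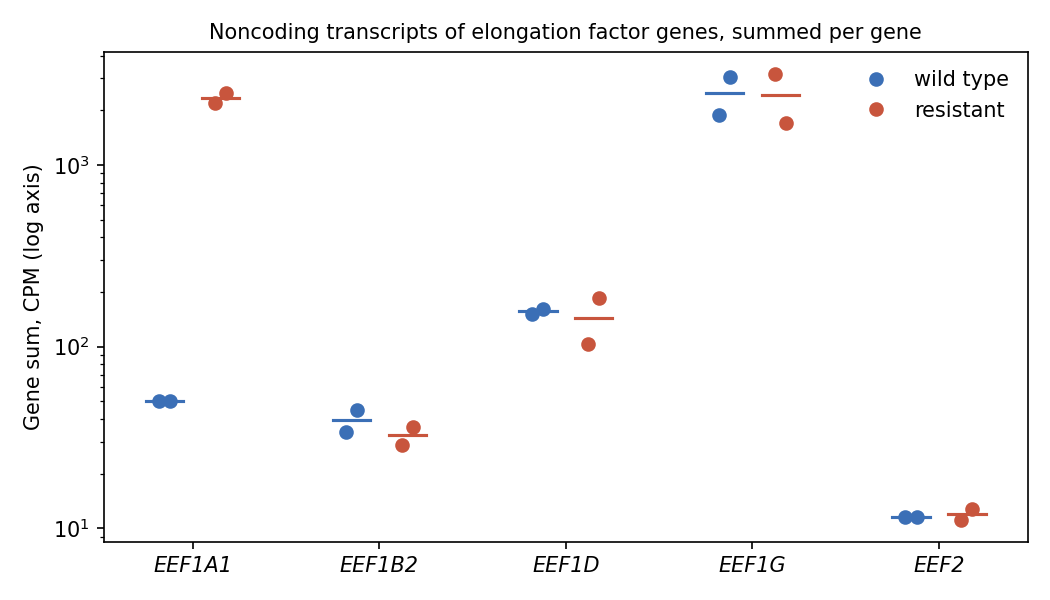
Gene sums of the noncoding transcripts of 5 elongation factor genes in CPM on a log axis, with a point for each library and a bar at the mean of each group. *EEF1A1* goes from at most 50.3 CPM in wild type to at least 2201 CPM in resistant cells, while the groups of the other 4 genes overlap.

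The partners of *EEF1A1* in the exchange complex did not share this pattern. *EEF1B2* (ENSG00000114942, chromosome 2) had 34.1 and 44.8 CPM in the wild-type pair and 28.95 and 36.2 CPM in the resistant pair, a log2 fold change of -0.28 ± 0.32 (SE). *EEF1D* (ENSG00000104529, chromosome 8) had 150.4 and 162.2 CPM in the wild-type pair and 104.1 and 185.0 CPM in the resistant pair, a log2 fold change of -0.11 ± 0.38. The resistant libraries of *EEF1D* lay on either side of the wild-type pair. *EEF1G* (ENSG00000254772, chromosome 11), the most abundant of the genes in wild type, had 1895 and 3057 CPM there and 3176 and 1710 CPM in resistant cells. Its libraries differed by 1.61-fold within wild type and 1.86-fold within resistant cells, more than the group means, whose log2 fold change was -0.02 ± 0.46.

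*EEF2* (ENSG00000167658, chromosome 19), the translocase gene, had 11.6 CPM in both wild-type libraries and 11.2 and 12.7 CPM in the resistant pair, at a log2 fold change of 0.05 ± 0.32 (SE). *EEF1A2* (ENSG00000101210, chromosome 20) had 31 counts in wild-type replicate 1, all assigned to the retained-intron transcript ENST00000645586, and 0 in the other 3 libraries, and it did not pass the filter on low counts. A count of 0 allows up to 3 counts in a library, counting error only. The groups did not overlap for 1 of the 5 tested member genes, *EEF1A1*. Over all tested genes both resistant libraries lay above both wild-type ones in 22.5% and below in 20.5%, together 43%. The median log2 fold change was -0.02 over the 5 genes and 0.01 over all tested genes.

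**Figure D2:**
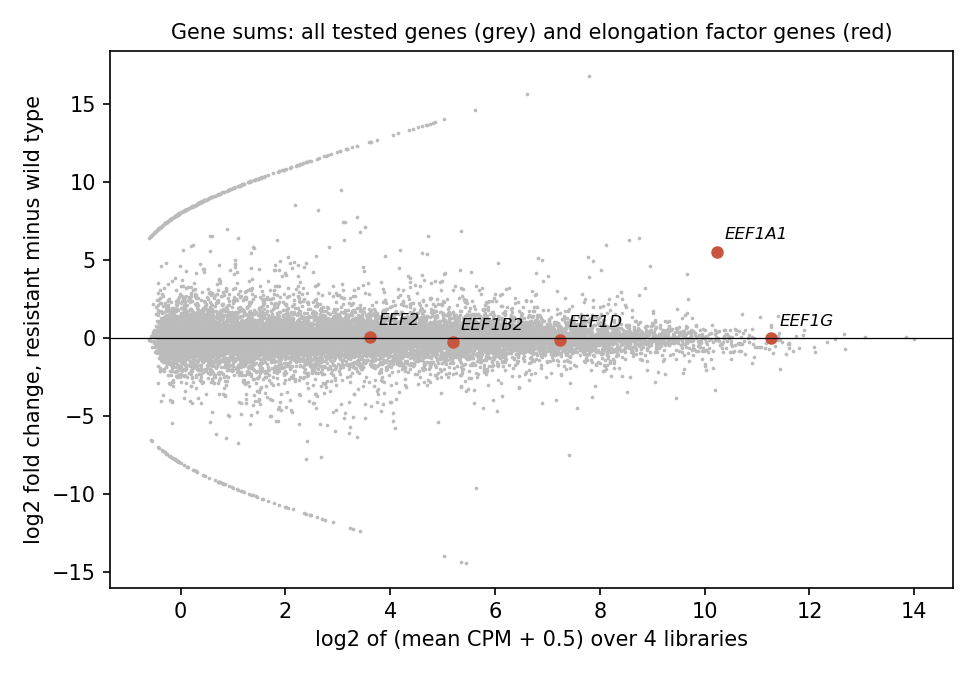
Log2 fold change of gene sums, resistant minus wild type, against the log2 of the mean CPM plus 0.5, for 13745 tested genes (grey) and 5 elongation factor genes (red). *EEF1A1* stands at 5.55 and the other 4 genes lie between -0.28 and 0.05.

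Levels of different genes can be compared only per length, here as TPM, the count per kilobase of transcript divided by its sum over all named transcripts and scaled to a fixed total. On this scale *EEF1G* was highest in wild type, at 1223 ± 591 (SD, n = 2 libraries), followed by *EEF1D* at 173.6 ± 2.79. *EEF1A1* at 46.5 ± 1.67 and *EEF1B2* at 45.3 ± 7.97 did not differ beyond their spread, and *EEF2* came next at 32.8 ± 1.40. In resistant cells *EEF1A1* was at 1461 ± 44.2 and *EEF1G* at 1330 ± 240.5, again within their spread. *EEF1D* was at 151.4 ± 63.4, *EEF1B2* at 41.4 ± 5.23 and *EEF2* at 28.5 ± 0.758. The order of the other 4 genes was thus the same in both groups, and *EEF1A1* moved from beside *EEF1B2* to beside *EEF1G*. All 6 genes together took 0.166% and 0.259% of the library's counts in the wild-type pair and 0.477% and 0.368% in the resistant pair.

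The *EEF1A1* difference lay in the counts assigned to 1 transcript. ENST00000490569, a retained-intron transcript of 6 exons and 1802 bases (chromosome 6, 73517519 to 73520059, minus strand), was estimated at 726 and 583 counts in the wild-type pair and 81739 and 90189 in the resistant pair. On the CPM scale of the transcript fit its mean was 101.9-fold higher in the resistant pair, and the fit gave a log2 fold change of 6.67 ± 0.33 (SE) at an edgeR adjusted p of 0.329. This fit tested 42393 transcripts and called 0, or 0%, with 3283, or 7.74%, at an unadjusted p under 0.05. limma-voom called 0 transcripts and DESeq2 2261, of which 1334 were higher in resistant cells (3.15%). A log2 fold change over 5 was found for 2.97% of transcripts. The transcript made up 49.1% and 42.6% of the counts of *EEF1A1* in the wild-type pair and 98.8% and 99.0% in the resistant pair.

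The other *EEF1A1* transcripts had similar counts in both groups. ENST00000495333 had 377 and 412 counts in the wild-type pair and 523 and 606 in the resistant pair, with a log2 fold change of 0.14 ± 0.38 (SE). In CPM its groups overlapped, with 10.5 and 12.5 against 11.5 and 13.8. ENST00000488500 had 377 and 375 against 465 and 293 counts, with a log2 fold change of -0.37 ± 0.44. In CPM it had 10.5 and 11.3 against 10.2 and 6.68, without overlap. ENST00000491404, the processed transcript, had 0 counts in all 4 libraries. Without ENST00000490569 the sum of *EEF1A1*, before scaling, was 754 and 787 counts in the wild-type pair and 988 and 899 in the resistant pair. The resistant libraries had larger totals, and after scaling the log2 fold change of this sum was -0.10 ± 0.29. Per kilobase of transcript the mean counts in wild type were 363 for ENST00000490569, 412 for ENST00000495333 and 475 for ENST00000488500, and in resistant cells they were 47705, 589 and 479. By these means ENST00000490569 was the lowest of the 3 in wild type, an order that did not hold in each wild-type library. In resistant cells ENST00000490569 was by far the highest.

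**Figure D3:**
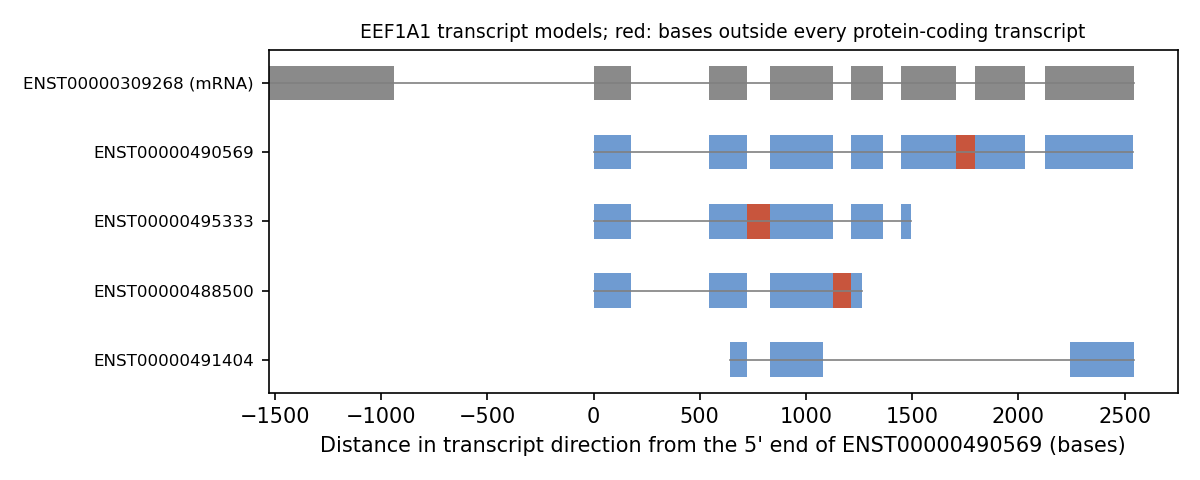
Exons of the 4 noncoding *EEF1A1* transcripts (blue) and of an *EEF1A1* mRNA (grey), by distance in bases from the start of ENST00000490569, with bases outside every protein-coding transcript of the gene in red. The red stretches have 89, 108 and 83 bases, and ENST00000490569 otherwise follows the mRNA.

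Few bases distinguish ENST00000490569 from the mRNA. Of its 1802 bases, 1713, or 95.1%, lie in exons of protein-coding *EEF1A1* transcripts, and it holds all 1386 coding bases of the principal mRNA. Of its 1772 distinct words of 31 bases, 93.5% occur in *EEF1A1* mRNAs of release 29 and the other 115 occur in no transcript of another gene. Words shared with other genes made up 79.0%, and 68.2% of the words were found in the processed pseudogene *EEF1A1P5*. In all, 32 pseudogenes named after *EEF1A1* or another of the 6 genes shared words with it. ENST00000495333 and ENST00000488500 have 135 and 113 words found neither in *EEF1A1* mRNAs nor in other genes. No word of an *EEF1A1* transcript in the table was shared with *EEF1A2*. Release 29 names 63 pseudogenes of the 6 genes, 39 of them of *EEF1A1*. None of the 63 was among the transcripts counted here. Whether reads of the mRNA or of pseudogenes entered the counts of ENST00000490569 was not tested.

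*EEF1G* was also led by 1 transcript, but in both groups. ENST00000525340, a retained-intron transcript of 9 exons and 2496 bases (chromosome 11, 62559603 to 62573860, minus strand), was estimated at 55942 and 76836 counts in the wild-type pair and 118637 and 52043 in the resistant pair. The lowest and the highest value both belong to resistant cells, and its log2 fold change was -0.03 ± 0.53 (SE). Of the counts of *EEF1G* it held 99.8% and 92.3% in the wild-type pair and 99.4% and 83.2% in the resistant pair. It contains all 1311 coding bases of the principal *EEF1G* mRNA. Of the 17 member transcripts whose gene has a principal mRNA marked in release 29, this one and ENST00000490569 of *EEF1A1* were the 2 that held the whole coding sequence. No other transcript of the 6 genes exceeded 9730 counts in any library.

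**Figure D4:**
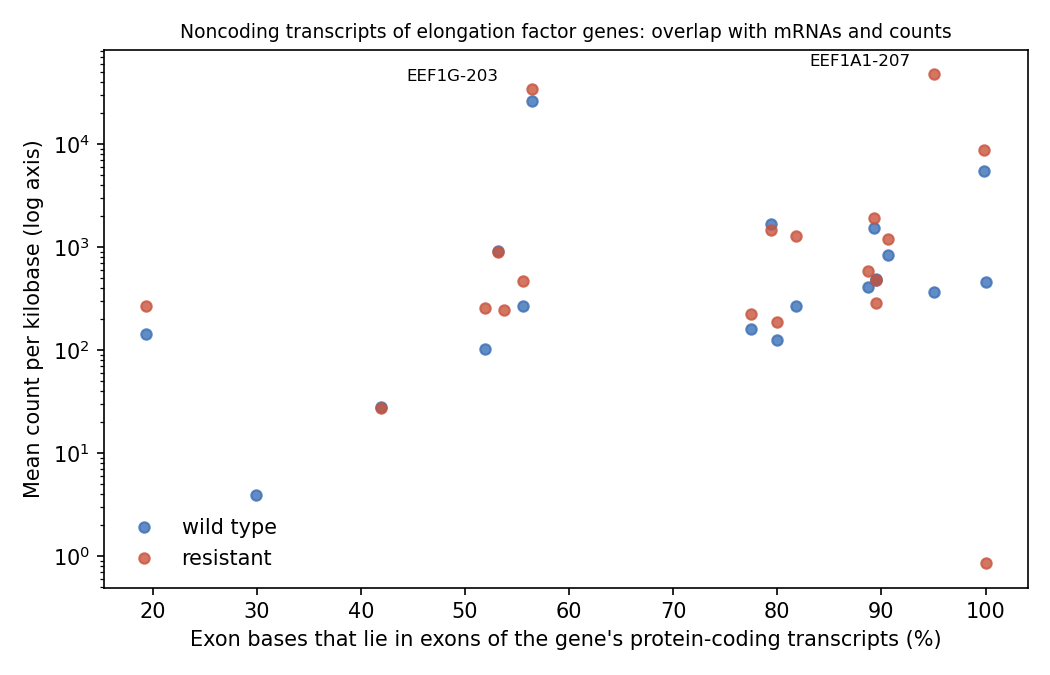
Mean count per kilobase (log axis) of each member transcript with counts, in wild type (blue) and resistant cells (red), against the share of its exon bases that lie in exons of the gene's protein-coding transcripts. EEF1A1-207 is ENST00000490569, at 95.1%, and EEF1G-203 is ENST00000525340, at 56.4%, and the red points of both lie above those of all other transcripts.

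The second transcript of *EEF1G*, ENST00000524420, a processed transcript of 557 bases, had 101 and 6063 counts in the wild-type pair and 0 and 9730 in the resistant pair. In each group the libraries thus differed far more than the groups did. It was the only one of the 23 transcripts at 0 in one resistant library and over 1000 in the other. This pattern was seen for 670 of all transcripts, in a table of 106179. Between the wild-type libraries it was seen for 560 transcripts, 0 of them members. ENST00000532986 had 0 and 310 counts in the wild-type pair and 716 and 783 in the resistant pair. The assignment of *EEF1G* reads is uncertain: all 31-base words of ENST00000525340 also occur in *AP002990.1*, a gene that overlaps *EEF1G* on the same strand. The *AP002990.1* transcript ENST00000526409 had 8752 and 32 counts in the wild-type pair and 2633 and 1676 in the resistant pair. It was picked after its values were seen.

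The exchange subunit gene *EEF1B2* was led by 1 transcript too. ENST00000460760 had 824 and 1049 counts in the wild-type pair and 850 and 977 in the resistant pair, which is 81.7% and 86.0% against 78.1% and 73.7% of the gene's counts. In CPM it had 22.9 and 31.7 against 18.7 and 22.3, without overlap. ENST00000482103, which contains the whole of *SNORA41*, a small nucleolar RNA gene in an intron of *EEF1B2*, had 165 and 151 against 212 and 337 counts. Their log2 fold changes were -0.42 ± 0.39 and 0.43 ± 0.47 (SE). ENST00000479587 had between 12 and 26 counts in every library.

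*EEF1D* had 6 transcripts in the table, and none led in every library. ENST00000525695 had 1000 and 2049 counts in the wild-type pair and 1130 and 1509 in the resistant pair. ENST00000526786 had 1257 and 838 against 1094 and 1925, and ENST00000530848 had 1209 and 913 against 528 and 2103. For these 3 transcripts the groups overlapped. ENST00000527741 had 505 and 552 counts in the wild-type pair and 882 and 1113 in the resistant pair, without overlap, at a log2 fold change of 0.54 ± 0.38 (SE). A pair of transcripts was counted mostly in one group. ENST00000531770 had 478 and 64 counts in the wild-type pair and 0 and 1 in the resistant pair, and ENST00000534232 had 0 in both wild-type libraries and 276 and 120 in resistant cells. The latter held at most 7.06% of the gene's counts in any library and was picked after its values were seen. Their adjusted p in edgeR was 0.383 and 0.335, and DESeq2 called both. ENST00000531770 lies wholly within exons of *EEF1D* mRNAs, so no base of its exons is its own. The assignment of *EEF1D* reads is uncertain as well. *AC067930.6*, a gene whose counts are not analysed here, shared 72.0% of the 31-base words of ENST00000527741, compared on both strands. It shared 63.7% of those of ENST00000534232, 58.1% of those of ENST00000530848 and 37.3% of those of ENST00000526786. The overlapping antisense gene *AC067930.2* had 0 counts in all libraries, and whether the counting used strand is not given in the sources used here.

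*EEF2* had low counts spread over 4 transcripts, with ENST00000600720 at 0 throughout. ENST00000596417 had 103 and 112 counts in the wild-type pair and 61 and 63 in the resistant pair, or -1.17 ± 0.44 (SE) as log2 fold change with edgeR adjusted p = 0.714. ENST00000594885 had 88 and 32 against 143 and 155 counts, a log2 fold change of 0.97 ± 0.66 (adjusted p = 0.917). It was 1.78 without wild-type replicate 1 and 0.45 without wild-type replicate 2. Their groups did not overlap, one lower and one higher in resistant cells at similar gene sums, and neither passed the test. ENST00000598182 had 77 and 108 against 109 and 150 counts, and ENST00000598436 had 75 and 63 against 107 and 98. In CPM the groups overlapped for ENST00000598182 (2.14 and 3.27 against 2.40 and 3.42). They did not for ENST00000598436 (2.08 and 1.91 against 2.35 and 2.23). No 31-base word of an *EEF2* transcript was shared with another gene.

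**Figure D5:**
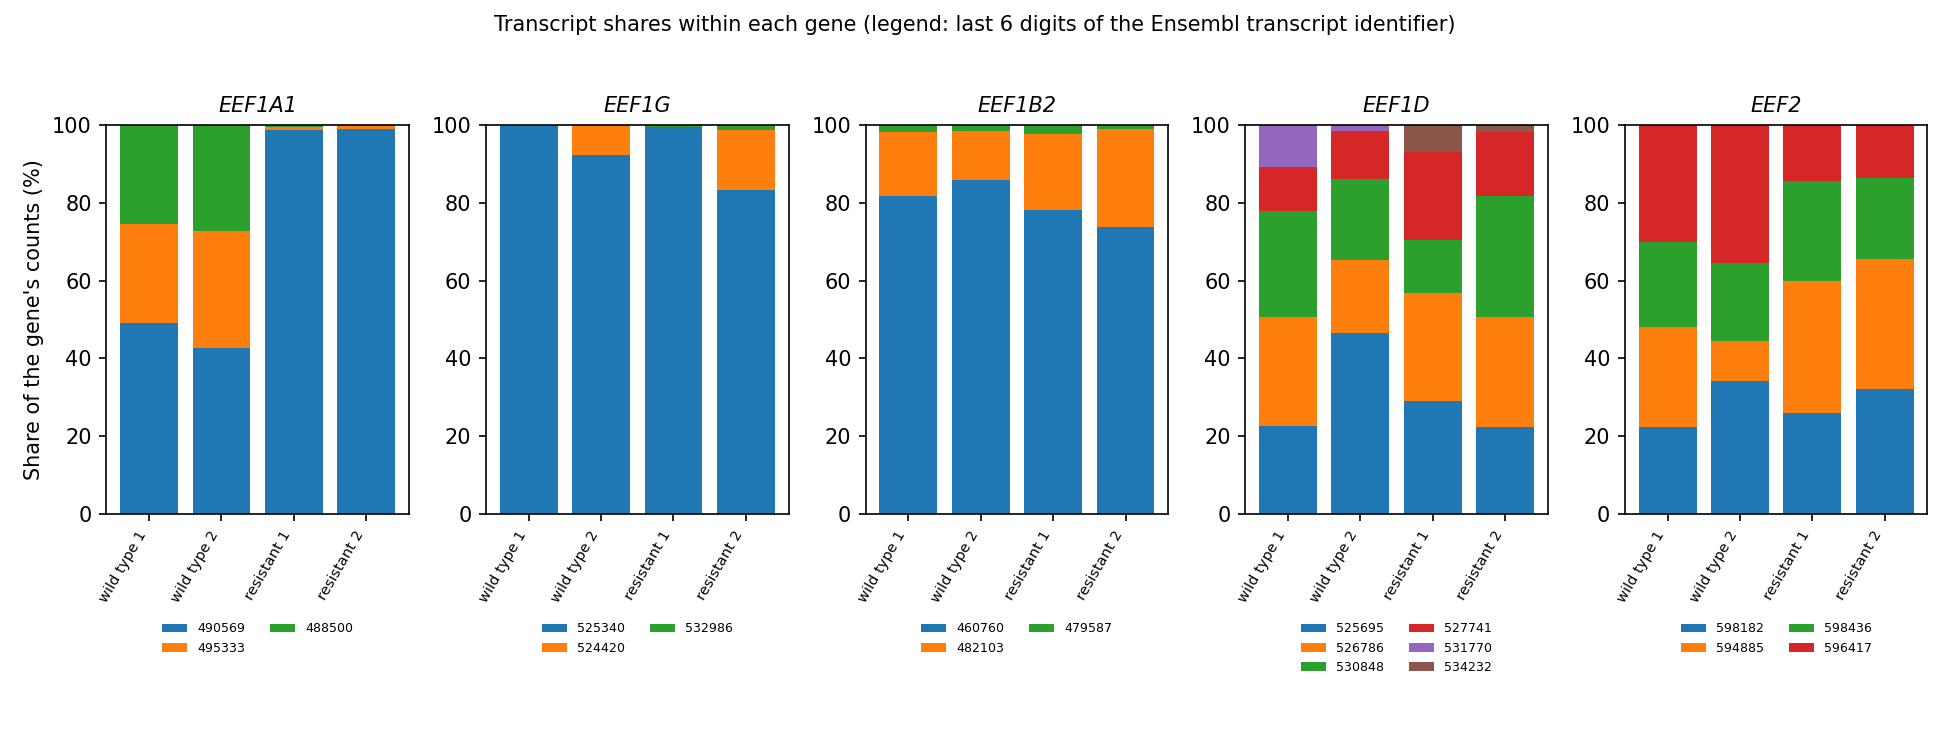
Share of each gene's counts by transcript, in percent, in the 4 libraries. The share of ENST00000490569 in *EEF1A1* is 49.1% and 42.6% in the wild-type pair and 98.8% and 99.0% in the resistant pair, while the leading transcripts of *EEF1G* and *EEF1B2* hold most of the counts in every library.

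Of the 19 member transcripts tested, 11 did not overlap between groups in CPM, 7 higher and 4 lower in resistant cells. Of all tested transcripts 40.3% did not overlap (21.4% higher and 18.9% lower). At an unadjusted p under 0.05 edgeR gave 3 of the 19, and DESeq2 called the same 3, ENST00000490569 of *EEF1A1* and the pair from *EEF1D*, beside 5.33% of all transcripts. The median log2 fold change was 0.14 over the 19 and 0.02 over all. Among the 6162 tested genes with at least 3 counted transcripts, the leading transcript held a median of 55.5% of the counts in both groups. In 54 of these genes, or 0.876%, it gained more than 50 percentage points from both wild-type to both resistant libraries. ENST00000490569 went from at most 49.1% to at least 98.8% by counts, just under that difference. Per kilobase its mean share was 29.01% in the wild-type pair and 97.8% in the resistant pair.

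The genes whose centred log2(CPM + 0.5) values over the 4 libraries lay closest to those of *EEF1A1*, among tested genes with a mean at or above the median, were *AC106869.1*, *EMBP1*, *UBXN2B*, *TICAM2* and *AL031599.1*. Their Euclidean distances were 0.191, 0.249, 0.252, 0.369 and 0.539. All 5 had 0 counts in both wild-type libraries, and between 664 and 1259 counts in the resistant ones. Their likeness rests on 4 values and on the pseudocount of 0.5.

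Other translation genes were described from lists, through their noncoding transcripts, and edgeR called 0 members of any list at an adjusted p under 0.05. Over all tested genes 8.67% had an unadjusted edgeR p under 0.05 in either direction, for comparison with the counts of each list below. Of 19 tested partners of the elongation factors, such as the diphthamide enzymes that modify the product of *EEF2*, 1 was higher and 1 lower in resistant cells at an unadjusted p under 0.05, with a median log2 fold change of 0.16. Highest by mean CPM were *DPH7*, at 170.5 ± 40.8 CPM in the wild-type pair and 251.6 ± 7.19 CPM in the resistant pair, and *DPH5*, at 158.9 ± 31.4 and 167.0 ± 16.7 CPM (SD, n = 2). *PELO*, a ribosome rescue factor gene, had 376 and 661 counts in the wild-type pair and none in the resistant pair (0 and 0), and *DPH3* had 66 and 36 against 164 and 220. *PELO* and *DPH3* were picked after seeing their values (edgeR adjusted p = 0.323 and 0.572), and DESeq2 called *PELO* only.

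Of 38 tested initiation factor genes, 0 were higher and 2 lower at an unadjusted p under 0.05, beside 8.67% of all tested genes. The median log2 fold change of the list was 0.21. *EIF3E*, of the initiation factor that binds the small ribosomal subunit, had 110711 and 3674 counts in the wild-type pair and 73271 and 7616 in the resistant pair, so that the libraries of a group differed more than the groups. *EIF3H* had 15632 and 22670 against 32318 and 29126 counts. In CPM its groups overlapped, with 528.6 and 832.8 against 860.0 and 795.9, a log2 fold change of 0.28 ± 0.32 (SE). The 2 genes lower at an unadjusted p under 0.05 were *EIF3L*, at 929.1 ± 83.5 and 527.9 ± 90.5 CPM, and *EIF3G*, at 48.1 ± 6.57 and 25.7 ± 1.31 CPM (SD, n = 2, edgeR adjusted p = 0.524 and 0.531).

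The 5 tested termination and recycling genes had a median log2 fold change of 0.41 and 0 members at an unadjusted p under 0.05. *GSPT1*, a release factor gene, had 614 and 488 counts in the wild-type pair and 950 and 962 in the resistant pair, and *ETF1*, whose product reads stop codons, had 349 and 364 against 1602 and 389. In CPM *GSPT1* had 20.8 and 17.9 against 25.3 and 26.3, a log2 fold change of 0.41 ± 0.29 (SE). *ETF1* had 11.8 and 13.4 against 42.6 and 10.6 CPM, so that its groups overlapped. The 4 tested mitochondrial elongation factor genes had a median of 0.65 and 0 at that level. *TUFM*, the mitochondrial counterpart of *EEF1A1*, had 651 and 6376 counts in the wild-type pair and 4714 and 6097 in the resistant pair. *GFM1* had 1280 and 1076 against 2166 and 1910 counts. In CPM *GFM1* had 43.3 and 39.5 against 57.6 and 52.2, a log2 fold change of 0.41 ± 0.26 (SE). Of 19 tested aminoacyl-tRNA synthetase genes, which load the tRNAs that *EEF1A1* protein carries, 0 were higher and 2 lower at an unadjusted p under 0.05 (8.67% over all genes). The 2 lower genes were *SARS* and *QARS* (edgeR adjusted p = 0.541 and 0.554), and the list had a median log2 fold change of -0.15. *CARS* had 839.0 ± 108 and 757.9 ± 26.7 CPM, and *YARS* 604.8 ± 82.2 and 489.8 ± 47.0 CPM (SD, n = 2).

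The labelled cell type was checked through noncoding transcripts only. Of 15 hepatocyte marker genes, 9 had a transcript in the table, and *AFP*, *TF*, *TTR*, *SERPINA1* and *FGB* had 0 counts in all libraries. The sum over the 9 was 10 to 11 counts in 3 libraries and 78 in resistant replicate 2. Of 12 markers of fibroblasts, endothelium and blood, 10 had a transcript, and their sum was 3354 and 4500 counts in the wild-type pair and 3288 and 2843 in the resistant pair, most of it from *VIM*. Of the 4 tested, 0 were higher and 1 lower at an unadjusted p under 0.05, *PDGFRB* with 106 and 160 against 44 and 11 counts (edgeR adjusted p = 0.556), and 2 had both resistant libraries below both wild-type ones, *PDGFRB* and *VIM*. Over all tested genes 8.67% had such a p in either direction, and 20.5% had both resistant libraries below. *COL1A2* and *CD3E* were at 0 in all libraries. Without mRNA values these counts do not show whether the cells express hepatocyte genes, and their part in the *EEF1A1* difference was not tested.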

How the data were processed

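RNA-seq of total RNA was made from 2 wild-type and 2 oxaliplatin-resistant libraries of cells labelled HepG2, with 2 µg of RNA per library and paired-end reads of 150 bases, per the labels' protocols. A single table was deposited by the authors, with whole-number estimated counts for 106179 transcripts (unit judged from the values). For aligner, counting tool and annotation, nothing is stated in the labels. A mouse build, mm9, appears in the submitters' processing notes, although the identifiers are human, and coordinates here come from GENCODE release 29 on GRCh38. It named 84072 of 103347 Ensembl transcripts, and the other 19275 were not assigned to a gene.

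Transcripts and sums per gene were tested over the whole table with the edgeR 4.0.16 quasi-likelihood test in R 4.3.3 (TMM, expression filter at a minimum count of 10, two-sided, Benjamini-Hochberg, threshold 0.05). DESeq2 1.42.0 and limma-voom 3.58.1 were alternatives, as were other size factors, no filter, the replicate number as a block and leaving out each library. With 2 libraries against 2 an exact permutation test cannot go below p = 0.33, so none was used. Replicate libraries differed by more than sampling noise (chi-square per transcript 216 and 242) and all were kept. Transcripts with at least 10% of their gene's counts in any library are named, with up to 2 others per gene, and of each list the 2 genes of highest mean. Sequence words were compared with all release 29 transcripts on both strands in Python 3.11.15. The members and lists were chosen with earlier results of these data known.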

Additional observations from a re-analysis of the deposited data

How the results depend on the processing

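The count of called features was 0 in edgeR with both size factors, without a filter, with the replicate block, in each run without 1 library (range 0 to 0, where a lone library is assumed to vary like the other group) and in limma-voom, for genes and for transcripts. DESeq2 called 633 genes and 2261 transcripts. The log2 fold change of the *EEF1A1* sum stayed between 5.46 and 5.63 over 9 alternatives, with adjusted p between 0.278 and 0.825 outside DESeq2, and that of ENST00000490569 between 6.57 and 6.77. With the replicate block these values were 5.54 and 6.67. The replicate numbers did not pair the libraries (correlation of deviations -0.02 over genes), and the block changed no call among the members.

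Without the leading transcript the sign turned for *EEF1A1* (-0.10), *EEF1B2* (0.34), *EEF1D* (0.10) and *EEF1G* (0.37). Leaving out 1 library gave -0.58 to 0.25 for *EEF1D*, -0.53 to 0.37 for *EEF1G* and -0.044 to 0.14 for *EEF2*. For transcripts it gave -1.07 to 0.093 (ENST00000525695), -0.33 to 0.54 (ENST00000526786), -1.40 to 0.65 (ENST00000530848), -0.71 to 0.42 (ENST00000525340), -0.18 to 0.44 (ENST00000598182) and -14.80 to 5.30 (ENST00000524420). The last was -3.92 in limma-voom and -3.27 with the replicate block. None of these passed a test in edgeR, and the cause was not tested.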
